A study of Homo sapiens with 20 samples.

Results

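The comparison described here is that of MDA-MB-231 cells after 12 h of cisplatin (Cis 12 h) with control cells (Control), 3 arrays against 3 of the 20 arrays of the series. All genes with a usable name were taken, without regard to their values: 19460 transcript clusters of the array carried exactly 1 gene symbol, and for a gene with several clusters the one with the highest mean over the 20 arrays stood for it, which left 18417 genes. MDA-MB-231 is an established line of triple-negative human breast cancer cells. The Cis 12 h cells received 36 µM cisplatin. The labels of the control arrays name the agent as Control and give no time, the methods speak of vehicle controls, and the same 3 arrays are the only controls for both times of the study. Of the other groups, 3 are used below for direct comparisons: cisplatin for 24 h (Cis 24 h, 3 arrays), 10 µM of the copper chelator TM for 12 h (TM 12 h, 2 arrays), and both drugs for 12 h (Cis/TM 12 h, 3 arrays). Wells of 6-well plates of 1 cell line were treated in triplicate. Nothing says that the arrays of a group stem from independent cultures, and p-values therefore measure the spread between these arrays, which may be technical.

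Cisplatin forms platinum adducts on DNA, mostly crosslinks between neighbouring purines of a strand. Such adducts stop replication forks, and they also stop RNA polymerase II on the transcribed strand, where stalled polymerase calls in transcription-coupled repair. A polymerase has to pass every base of a gene, introns included, to finish a transcript, so the length of a gene sets how much DNA is exposed to adducts between its start and its end. Cells answer such damage with cell cycle inhibitors, stress kinases, NF-kB and short-lived immediate early transcription factors.

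Values are RMA log2 signals, so a difference of 1 is a 2-fold change. A gene was called upregulated or downregulated at a Benjamini-Hochberg adjusted p under 0.05 in limma with a fold change over 1.5. By this rule 2718 genes were upregulated (14.8%) and 1983 were downregulated (10.8%) in Cis 12 h against Control, and these percentages over all genes are the background against which each count below is to be read. The change exceeded 2-fold for 1151 of the upregulated and 822 of the downregulated genes, and 4-fold for 84 and 67. In 97.4% of the called genes the 3 treated arrays did not overlap the 3 control arrays, as in 47.4% of all genes. Standard errors of the log2 fold changes had a median of 0.135. The line's own marker VIM, the mesenchymal intermediate filament, stood between 11.20 and 11.33 on all 6 arrays, and CDH1, epithelial E-cadherin, which this line lacks, between 3.71 and 4.08. Of 8 markers of the line 5 were not called, SPARC was upregulated, and EGFR (-1.36) and CAV1 (-0.60) were downregulated, CAV1 not without Cis 12 h A (-0.50) or Control A (-0.52). RNA of a whole culture cannot tell fewer cells of one kind from less RNA per cell.

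Some properties of the arrays moved with the groups. The mean of the array medians lay 0.152 higher in Cis 12 h than in Control while the median log2 fold change was -0.006, and fold changes tended to be higher for genes of higher mean level (Spearman correlation 0.23 across genes, which are not independent). The labels number the arrays in the order of the groups, so a drift along that order cannot be told apart from treatment. Cis 12 h A differed somewhat from the other 2 treated arrays, and without it 2854 genes were upregulated and 1825 downregulated. When each array was first centred on its median, 39.7% of called genes were upregulated against 57.8% without it.

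ID2, whose product binds basic helix-loop-helix factors and keeps them off DNA, increased most. Its log2 signal was 9.29, 9.52 and 9.49 on the Cis 12 h arrays A, B and C and 5.04, 4.79 and 5.30 on the Control arrays, far from any overlap. The log2 fold change was 4.39 ± 0.21 (SE; limma adjusted p = 1.4e-11). RFPL4A followed with 11.52, 11.61 and 11.50 against 7.82, 7.71 and 7.70, a log2 fold change of 3.80, but this gene has near-identical copies in the genome and the signal may be shared among them. SNAI1, a repressor of E-cadherin that drives epithelial to mesenchymal transition, stood at 7.42, 7.64 and 7.27 against 4.65, 4.42 and 3.77 (log2 fold change 3.16 ± 0.18 SE, adjusted p = 8.89e-11). CXCL8, the chemokine interleukin 8, stood at 8.68, 9.13 and 8.66 against 5.69, 6.12 and 5.77 (2.96 ± 0.15 SE, adjusted p = 1.99e-11). Again neither gene had a treated array near the controls. The rest of the 10 largest rises were RND1 (3.38), a small GTPase, MYLIP (3.24), a ubiquitin ligase that degrades the LDL receptor, RGS2 (3.14), a brake on G protein signalling, ALDOC (3.11), an aldolase of glycolysis, NR4A2 (2.86), an inducible orphan nuclear receptor, and BAMBI (2.85), a decoy receptor that dampens TGF-beta signalling. All 10 are compact genes, from 2.4 kb (ID2) to 34.8 kb (MYLIP) from first to last base in RefSeq.

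The largest fall was that of KLHL4, a Kelch family gene of 152.2 kb, from 8.62, 8.55 and 8.32 on the Control arrays to 5.04, 5.58 and 5.52 (log2 fold change -3.11 ± 0.15 SE, adjusted p = 1.4e-11). DOCK10, an activator of small GTPases that spans 277.4 kb, went from 8.54, 8.52 and 8.78 to 5.30, 5.76 and 5.83 (-2.98 ± 0.14 SE). GPHN, which encodes gephyrin, the anchor of inhibitory synapses and an enzyme of molybdenum cofactor synthesis, spans 1227.2 kb and went from 8.27, 8.33 and 8.26 to 5.27, 5.35 and 5.36 (-2.96 ± 0.13 SE, adjusted p = 8.29e-12). Each of the 3 lost about 3 log2 units on every treated array. The others were ANKFN1 (-2.95, 470.9 kb), ARHGAP42 (-2.91, 306.7 kb), a GTPase activating protein, NRG1 (-2.79, 1134.8 kb), the ERBB ligand neuregulin 1, ARL15 (-2.70, 426.6 kb), ST6GALNAC3 (-2.65, 562.6 kb), a sialyltransferase, STAG1 (-2.62, 416.1 kb), a cohesin subunit, and NLGN1 (-2.57, 898.4 kb), a synaptic adhesion protein. No gene among these 10 is shorter than 152.2 kb.

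**Figure D1:**
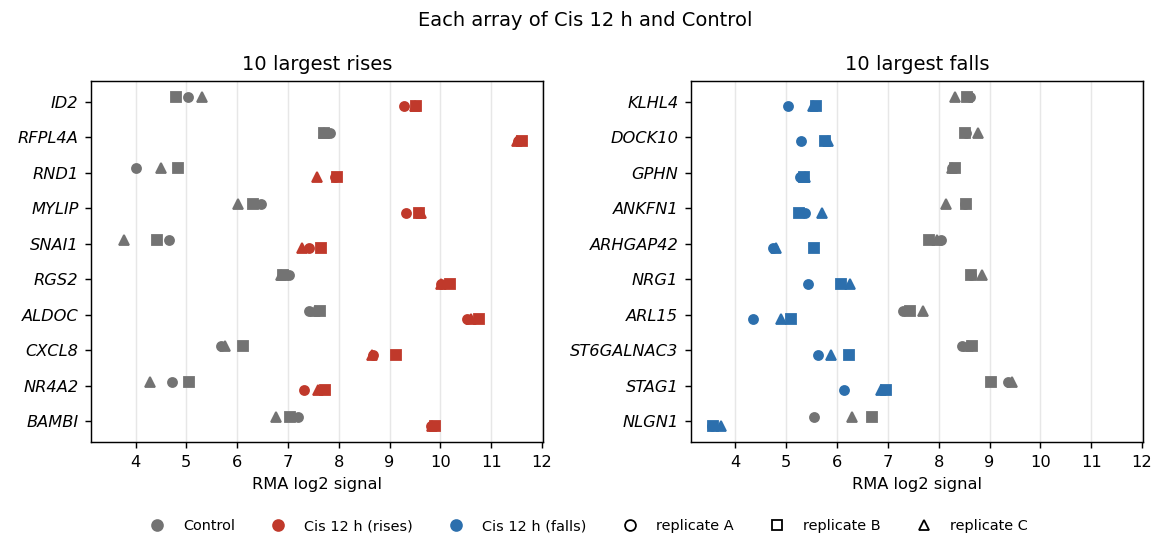
RMA log2 signal (horizontal axis) of the 10 genes with the largest rises (left) and the 10 with the largest falls (right) in Cis 12 h against Control; each point is 1 array, grey for Control and coloured for Cis 12 h, with the replicate letter given by its shape. Only called genes whose 3 treated arrays did not overlap the 3 control arrays could be shown, so their separation is no separate finding. The group means differ by as much as 4.39 in ID2.

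The bases just before the transcription start are shown for 4 strongly upregulated genes, ID2, CXCL8, FOS (log2 fold change 2.84) and GADD45B (2.59), since they stood among the strongest rises and are textbook inducible genes. The sequences are the 250 bases before the start in RefSeq (GRCh38.p14), all on the plus strand: ID2 at chr2:8681806-8682055, CXCL8 at chr4:73740319-73740568, FOS at chr14:75278578-75278827 and GADD45B at chr19:2475877-2476126. Capitals mark the CCAAT box and GC box in ID2, the AP-1 site and TATA box in CXCL8, the GC box and TATA box in FOS, and the CCAAT box and TATA box in GADD45B.
ID2: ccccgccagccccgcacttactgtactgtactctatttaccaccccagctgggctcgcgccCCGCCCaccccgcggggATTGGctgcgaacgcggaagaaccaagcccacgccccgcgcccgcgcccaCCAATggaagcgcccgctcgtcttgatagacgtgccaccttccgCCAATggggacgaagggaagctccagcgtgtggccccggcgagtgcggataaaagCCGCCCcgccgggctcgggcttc
CXCL8: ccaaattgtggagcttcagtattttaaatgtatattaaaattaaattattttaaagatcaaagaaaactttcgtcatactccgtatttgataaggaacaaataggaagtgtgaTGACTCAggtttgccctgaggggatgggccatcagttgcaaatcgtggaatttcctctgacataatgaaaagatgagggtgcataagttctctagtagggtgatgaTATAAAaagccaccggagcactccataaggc
FOS: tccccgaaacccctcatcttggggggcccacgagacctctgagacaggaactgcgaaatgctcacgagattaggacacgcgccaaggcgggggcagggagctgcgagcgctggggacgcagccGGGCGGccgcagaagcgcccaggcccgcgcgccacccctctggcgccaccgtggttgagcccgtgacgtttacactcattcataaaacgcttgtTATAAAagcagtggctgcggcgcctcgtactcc
GADD45B: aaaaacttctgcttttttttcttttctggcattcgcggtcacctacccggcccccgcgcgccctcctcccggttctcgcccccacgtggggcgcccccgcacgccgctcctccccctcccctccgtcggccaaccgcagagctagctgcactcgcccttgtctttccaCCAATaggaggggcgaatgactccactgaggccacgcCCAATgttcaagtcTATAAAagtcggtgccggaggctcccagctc

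The letters searched, on both strands, were TATAAA for the TATA box, CCAAT for the CCAAT box, GGGCGG for the GC box, TGANTCA for AP-1 and TGACGTCA for the cyclic AMP response element, and no marked stretches overlap. CXCL8, FOS and GADD45B each hold a TATA box that starts 31 to 33 bases before the start, whereas ID2 holds none of those letters but 3 CCAAT boxes. Of the 18417 genes 14239 had a promoter in the RefSeq table, and of these 8.6% held the TATA box, 34.4% the CCAAT box, 57.5% the GC box, 4.91% the AP-1 site and 2.37% the cyclic AMP response element. Among the 2208 upregulated genes with a promoter the GC box stood in 69.7%, the cyclic AMP response element in 3.94% and the TATA box in 5.75%, and among the 1637 downregulated ones in 59.8%, 2.08% and 7.27%. The AP-1 site stood in 3.89% of the upregulated and 4.89% of the downregulated genes, and the CCAAT box in 37.2% and 31.8%. These are matches of letters and show no binding.

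Direction of change followed gene length. RefSeq gives a length for 16899 of the protein-coding genes compared, counted from the first to the last base of the gene with introns. Of the 7051 genes shorter than 20 kb, 1752 were upregulated and 148 were downregulated, 24.8% and 2.1%. Of the 3076 genes of 100 kb or longer, 28 were upregulated and 1206 were downregulated, 0.91% and 39.2%. The shares changed step by step between these ends. Upregulated genes made up 26.5% of genes from 5 to 20 kb, 16.2% from 20 to 50 kb, 4.34% from 50 to 100 kb, 1.24% from 100 to 200 kb, 0.59% from 200 to 400 kb and 0.224% from 400 kb upward. Downregulated genes made up 1.88%, 3.94%, 14.2%, 37.1%, 45.2% and 36.2% of the same classes. Genes shorter than 5 kb had 21.2% upregulated and 2.57% downregulated. The rise of short genes depended on the scaling of the arrays. The median log2 fold change of genes under 20 kb was 0.18, and 0.03 with each array centred on its median. For genes of 100 kb or longer it was -0.42, and -0.57 after centring. Quantile normalization gave 0.14 and -0.42.

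On each treated array genes from 5 to 20 kb lay highest and the classes of 100 kb or longer lowest. The order of the short classes was not the same. Genes under 5 kb lay above those from 20 to 50 kb on Cis 12 h A (0.11) and below them on B and C (0.08 on each). Against the mean of the controls, the median log2 difference of genes from 200 to 400 kb was -0.50, -0.48 and -0.50 on Cis 12 h A, B and C, and that of genes from 5 to 20 kb was 0.32, 0.17 and 0.18. On the 3 control arrays the medians of all classes stayed within 0.04 of 0. Cis 12 h A was the highest of the 3 treated arrays in genes under 5 kb, with 0.30 against 0.00 and 0.02, and without that array 1105 of the genes of 100 kb or longer were downregulated and 33 upregulated.

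**Figure D2:**
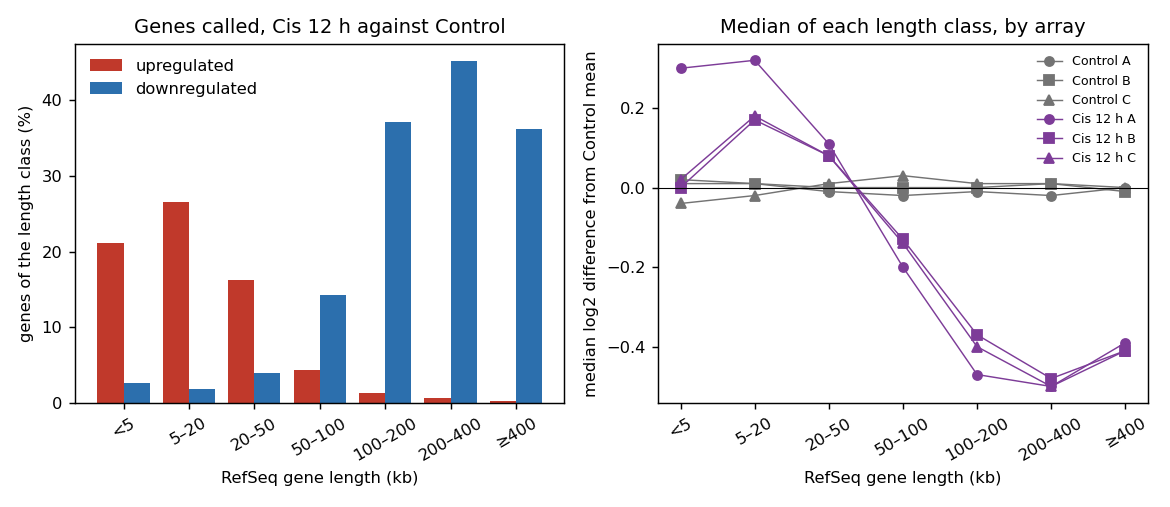
Left, percent of protein-coding genes (vertical axis) called upregulated (red) or downregulated (blue) in Cis 12 h against Control in 7 classes of RefSeq gene length in kb (horizontal axis); right, median log2 difference from the Control mean in the same classes, 1 line for each array. Upregulated genes peak at 26.5% in the class from 5 to 20 kb, downregulated genes at 45.2% from 200 to 400 kb, and the 3 Cis 12 h lines cross 0 between 20 and 100 kb while the Control lines stay near 0.

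To view length at similar levels, genes were split into 4 equal classes of mean signal over the 14 arrays outside the comparison. These include arrays of cells given cisplatin for 24 h or both drugs, so the classes can themselves depend on cisplatin. Level and length are therefore not fully separated. In the class of highest signal, genes under 20 kb had a median log2 fold change of 0.61 (51.1% upregulated, 2.43% downregulated) and genes of 100 kb or longer had -0.90 (1.15% upregulated, 72.8% downregulated, 568 of 780). In the third class the medians were 0.51 and -0.65, and in the second 0.11 and -0.17. In the class of lowest signal they were -0.21 and -0.27. There most called genes of either length were downregulated, 87 against 11 upregulated among genes under 20 kb (5.24% and 0.663%) and 82 against 1 among genes of 100 kb or longer (9.37% and 0.114%). A second split used the mean level over all 20 arrays, those of the comparison included. Among genes above the median of that level, the median log2 fold change reached -1.39 for those of 400 kb or longer. It was -0.39 for all genes of that length.

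The named giant genes show the range. Of 50 measured genes on a list of very long genes, 28 were downregulated and 1 was upregulated, with a median log2 fold change of -0.72. DLG1, a scaffold of cell polarity, had -2.18, PARD3, another polarity scaffold, -1.98, and PTPRM, a receptor phosphatase of 839.5 kb, -1.06. The exception was FHIT, the fragile-site gene of 1504.2 kb, at 5.48, 5.59 and 6.09 in Cis 12 h against 5.23, 4.88 and 5.15 (log2 fold change 0.64 ± 0.20 SE, adjusted p = 0.0115). Its arrays did not overlap, and the call was lost without Cis 12 h C (0.45, adjusted p = 0.0828) or Control B (0.53, adjusted p = 0.0541). CCND3, which encodes cyclin D3, was another long gene that was upregulated (1.22). The span of RefSeq covers all isoforms, so the transcript present in these cells may be shorter than the length given.

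Within pathways, too, the downregulated members were mostly longer than the upregulated ones, though many long members were not called. Of 36 gene lists with members called in both directions, the downregulated members had the longer median length in 32. In several of these lists only 1 member was called in a direction, so that its length stands as the median. The lists draw on the same genes as the length classes above and are no separate evidence. The proteasome, which degrades tagged proteins, had 18 of 37 subunits and regulators upregulated and 1 downregulated (median log2 fold change 0.56), with PSMD3 (1.95), ADRM1 (1.86) and PSMC3 (1.83) among the risers. The one that fell was PSME4, an activator cap of 106.9 kb and the third longest of the list, from 9.47, 9.43 and 9.45 to 8.09, 8.51 and 8.43 (-1.11 ± 0.10 SE, adjusted p = 2.6e-08). Of the 4 members of 100 kb or longer only PSME4 was called, and the longest, PSMA1 (138.8 kb, 0.33), was not. RNA polymerase I, II and III had 17 of 28 subunits upregulated, including POLR2A (1.89), the catalytic subunit of polymerase II, and POLR2C (1.57). The single subunit that fell was POLR3B, at 152.5 kb the longest of the 28, from 9.22, 9.13 and 9.23 to 7.57, 7.82 and 7.81 (-1.46 ± 0.10 SE, adjusted p = 5.86e-10).

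Genes of mitochondria and ribosomes showed the same arrangement. Of 73 mitochondrial ribosomal proteins 44 were upregulated (median 0.74), among them MRPS11 (1.92) and MRPL49 (1.78), and 1 was downregulated, MRPL1 (-0.82), the second longest. The longest, MRPS27 (100.8 kb, -0.04), was not called. Of 75 respiratory chain and ATP synthase subunits 41 were upregulated (median 0.66), such as NDUFV1 (1.70) and NDUFB9 (1.54) of complex I, and 1 was downregulated, COX7B2 (-0.74), at 174.4 kb the longest, which without Cis 12 h A stood at -0.58 and was not called. Of the 3 subunits of 100 kb or longer only COX7B2 was called. Cytosolic ribosomal proteins had 25 of 67 upregulated (median 0.40), led by RPS15 (2.20) and RPL18 (1.74), with 1 downregulated, RPL22 (-0.92), which at 14.6 kb is not long and without Cis 12 h A was not called (-0.55). Ribosomal protein genes have many processed pseudogenes whose transcripts can share probes, so single values there are uncertain.

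**Figure D3:**
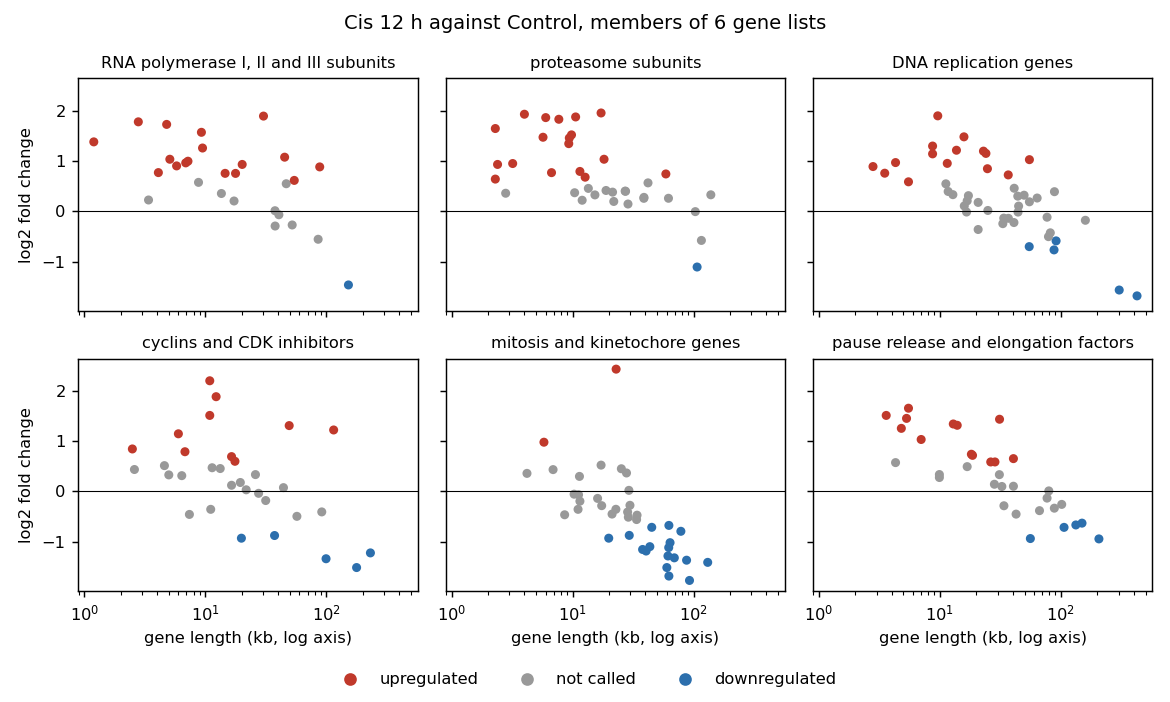
Log2 fold change in Cis 12 h against Control (vertical axis) and RefSeq gene length in kb on a log axis (horizontal axis) for the members of 6 gene lists; each point is 1 gene, red if upregulated, blue if downregulated and grey if not called. In all 6 panels downregulated genes lie towards the right, as POLR3B (152.5 kb) among the RNA polymerase subunits and PSME4 (106.9 kb) in the proteasome panel.

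PMAIP1, which encodes the BH3-only killer NOXA, stood at 10.51, 10.49 and 10.59 against 7.81, 7.47 and 7.93 (2.79 ± 0.11 SE, adjusted p = 1.04e-12). GADD45B, a stress sensor that feeds p38 and JNK signalling, stood at 9.15, 9.01 and 9.08 against 6.61, 6.34 and 6.52 (2.59 ± 0.11 SE). CDKN1A, the cyclin-dependent kinase inhibitor p21, stood at 7.89, 8.29 and 7.83 against 5.86, 6.11 and 5.45 (2.20 ± 0.14 SE, adjusted p = 4.4e-10). In all 3 genes every treated array exceeded every control array. GADD45A (1.68) and DDB2 (1.19), a sensor of helix-distorting damage, were also upregulated.

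In the BCL2 family, which sets the threshold of apoptosis at mitochondria, 5 of 21 genes were upregulated and none was downregulated (median 0.23). Besides PMAIP1 these were BCL2A1, a pro-survival member and NF-kB target, at 2.75, BCL2L11, the killer BIM, raised 2.82-fold, and the pore formers BAK1 (0.83) and BAX (0.62). BAX was not called without Control B (0.53). MCL1 (0.23) and BCL2L1 (0.19), both pro-survival, were not called. Of 24 caspases, death receptors and apoptosis inhibitors 5 were upregulated, which were CASP4 (1.18), CASP2 (0.94), CASP9 (0.93), the death receptor TNFRSF10A (0.69) and the adaptor TRADD (0.61), and BIRC6, a giant inhibitor of apoptosis, was downregulated (-1.38). TNFRSF10A was not called without Control A (0.54), nor TRADD without Cis 12 h A (0.48), Cis 12 h B (0.58) or Control C (0.48).

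NF-kB targets and feedback inhibitors had 12 of 22 upregulated and none downregulated (median 0.67). CD83, a surface protein, had a log2 fold change of 1.98. TNFAIP3 (A20, 1.56) and NFKBIA, the inhibitor IkB-alpha (0.99), whose products restrain the pathway, were upregulated with it, as was NFKBIZ (1.23). The subunit RELA had 1.09. Of 27 chemokines, interleukins and colony-stimulating factors 7 were upregulated, with CXCL8 (2.96) followed by IL11 (1.30), and CXCL2 (1.07), and IL33 was downregulated (-0.69, but -0.46 and not called without Control C). The median of these 27 was -0.05.

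Immediate early transcription factors had 16 of 27 upregulated and none downregulated (median 0.76). FOS stood at 8.04, 8.18 and 7.82 against 5.48, 5.08 and 4.95 (2.84 ± 0.21 SE, adjusted p = 1.96e-09), with no overlap. Its AP-1 partner JUN (1.54), the stress factor ATF3 (1.45) and NR4A2 (2.86) were upregulated, whereas EGR1 (0.52) and MYC (-0.42) were not called. MAPK feedback regulators were divided: DUSP1 (1.98), DUSP10 (1.41), DUSP7 (1.08) and DUSP14 (0.92), phosphatases of MAP kinases, were upregulated, and SPRED2 (-1.30), SPRY1 (-1.17), SPRED1 (-0.91), ERRFI1 (-0.79) and SPRY4 (-0.63), inhibitors of receptor signalling, were the 5 of 18 that were downregulated. SPRY4 was not called without Cis 12 h A or without Control A (-0.53 in both). Here the downregulated members did not have the longer median length.

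ID2 was the only called gene of its family. ID1 (0.45, limma adjusted p = 0.00572) and ID4 (0.33, adjusted p = 0.0167) were higher on every treated array than on any control array. Both missed only the fold change required for a call. ID3 (0.15) was not called either, and its arrays overlapped. In the BMP and TGF-beta list 5 of 30 genes were upregulated, ID2, BAMBI, the corepressor SKIL (0.73) and the ligands BMP4 (0.69) and TGFB3 (0.66, but 0.44 and not called without Control A). With each array centred on its median BMP4 (0.54), SKIL (0.58) and TGFB3 (0.51) were not called. Downregulated were 5, the ligand TGFB2 (-1.77), the receptors BMPR2 (-1.58) and TGFBR2 (-1.18), the ubiquitin ligase SMURF2 (-1.44) and the signal transducer SMAD3 (-1.12). Transcription factors of epithelial to mesenchymal transition were divided as well, with SNAI1 upregulated and ZEB1, a gene of 211.4 kb, downregulated from 9.45, 9.28 and 9.50 to 7.64, 7.98 and 7.93 (-1.56 ± 0.10 SE, adjusted p = 3.16e-10). ZEB2 (-0.89) and the tight junction gene TJP1 (-1.02) were also downregulated, and FN1, fibronectin, (0.92) and the SNAI1 relatives SNAI3 (0.67) and SNAI2 (0.61) were upregulated. Neither of these 2 was called without Control A (0.42 and 0.56), SNAI3 also not without Cis 12 h A (0.54) and SNAI2 not without Cis 12 h B (0.58). Of 20 YAP and TEAD targets 7 were downregulated, led by TEAD1 itself (-1.25) and WWTR1, the coactivator TAZ (-1.04), and 1 was upregulated, NUAK2 (0.96). CCN1 (-0.56) and CCN2 (-0.07), the classical targets, were not called.

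Glutathione and NRF2 genes, which detoxify electrophiles and peroxides, had 20 of 39 upregulated and 2 downregulated (median 0.68). GPX1, glutathione peroxidase 1, stood at 8.93, 9.14 and 8.97 against 6.03, 6.39 and 6.08 (2.85 ± 0.14 SE, adjusted p = 1.4e-11). GPX4, the lipid peroxidase that prevents ferroptosis, had 2.04, and GSTP1, a transferase that can conjugate platinum drugs to glutathione, had 2.02. The downregulated genes were SLC7A11, the cystine importer that feeds glutathione synthesis, from 11.17, 11.05 and 11.06 to 9.35, 9.69 and 9.70 (-1.52 ± 0.10 SE, adjusted p = 9.66e-10), and TXNRD1, thioredoxin reductase (-0.84). SLC7A11 spans 78.3 kb and TXNRD1 134.5 kb, whereas GPX1 spans 1.2 kb.

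Copper handling genes bear on this study because copper transporters also carry platinum. Of 31 copper and platinum transport genes and metallothioneins 9 were upregulated and 3 were downregulated (median 0.23). ATP7A, the copper-exporting ATPase, a gene of 139.7 kb, stood at 5.68, 6.51 and 6.29 against 7.93, 7.97 and 7.84 (-1.75 ± 0.16 SE, adjusted p = 2.42e-08). ATOX1, the chaperone that hands copper to it, stood at 9.69, 9.65 and 9.49 against 8.35, 8.23 and 7.73 (1.51 ± 0.13 SE, adjusted p = 2.02e-08). Both changed without overlap and in opposite directions. TMEM205 (2.19), a membrane protein linked to platinum resistance, and the metallothionein MT1X (1.62) were upregulated, and the efflux pumps ABCC4 (-1.61) and ABCC1 (-0.72) were downregulated. ATP7B (-0.34), the related exporter, was at 3.89 to 4.74 on all 6 arrays and was not called.

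Repair genes are given by list: nucleotide excision repair, homologous recombination and translesion synthesis. In that order 32.0%, 15.2% and 6.67% were upregulated, against 14.8% of all genes, so the recombination share was near background. Downregulated were 0%, 18.2% and 40.0%, against 10.8%. The median gene lengths of the lists also differed, at 33.5, 43.0 and 56.5 kb. Nucleotide excision and transcription-coupled repair, which removes platinum adducts, had 8 of 25 genes upregulated and none downregulated (median 0.28), led by ELOF1 (2.39) and XAB2 (1.96), both partners of stalled RNA polymerase II, with DDB2 (1.19) and RPA2 (0.94). Homologous recombination and crosslink repair had 5 of 33 upregulated, FANCG (1.18), DCLRE1B (1.02), EME1 (0.97), FANCE (0.84) and RAD54L (0.69, but 0.52 and not called without Control A), and 6 downregulated, among them RAD50 (-1.43) and the helicase BRIP1 (-1.03). BRCA1 did not reach a fold change over 1.5 (-0.47 ± 0.15 SE, adjusted p = 0.0155). Translesion synthesis, the bypass of adducts at forks, had 6 of 15 downregulated, with REV3L (-1.16), the catalytic subunit of polymerase zeta, SHPRH (-0.90) and RAD18 (-0.85), and 1 upregulated, MAD2L2 (1.44), the partner of REV3L. Of the checkpoint genes 9 of 26 were upregulated, including H2AX (1.02) and HUS1 (1.03), while the apical kinases ATM (-1.07) and ATR (-0.74) and their activator TOPBP1 (-0.88) made up the 3 that were downregulated. Without Cis 12 h A the call of ATR was lost (-0.57).

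Cell cycle genes also moved in both directions. Among cyclins, inhibitors and E2F genes 10 of 32 were upregulated, with CCNE1 (cyclin E1, 1.88), E2F1 (1.51) and CDKN1A (2.20), and 5 were downregulated, with the retinoblastoma gene RB1 (-1.51), its relative RBL1 (-1.34), CDK6 (-1.22), CCNB2 (-0.93) and E2F5 (-0.88). DNA replication genes had 15 of 46 upregulated, such as RFC2 (1.20), MCM2 (1.15) and ORC6 (1.14), and 5 downregulated, led by the primase and polymerase alpha subunits PRIM2 (-1.68, 425.3 kb) and POLA1 (-1.56, 303.1 kb), with the origin binding subunits ORC3 (-0.77), ORC2 (-0.70) and ORC4 (-0.59). The call of ORC3 was lost without Cis 12 h A (-0.54), that of ORC2 without Control C (-0.52), and that of ORC4 without either (-0.34 and -0.49). Mitosis and kinetochore genes had 17 of 40 downregulated and 2 upregulated (median -0.47). CENPE, a kinetochore motor, went from 9.33, 9.10 and 9.49 to 7.23, 7.59 and 7.79 (-1.77 ± 0.14 SE, adjusted p = 7.2e-09), and BUB1B (-1.51), CENPF (-1.28) and DLGAP5 (-1.10) were also downregulated. The kinase AURKB (0.98) and CDCA5 (2.43), which encodes the cohesin protector sororin, were upregulated. The mitotic kinases PLK1 (-0.19) and AURKA (-0.35) and the proliferation marker MKI67 (-0.28) were not called.

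Elongation factors had 13 of 33 upregulated and 5 downregulated (median 0.33). HEXIM1 (1.51) and MEPCE (1.45), which hold the elongation kinase P-TEFb inactive in the 7SK particle, and PAF1 (1.65) and BRD2 (1.34), which promote elongation, were upregulated, and AFF1 (-0.94), TCEA1 (-0.94), CDK12 (-0.71), CDC73 (-0.67) and CDK13 (-0.63) were downregulated, the last not without Cis 12 h A (-0.55) or Control B (-0.55). In the integrated stress and unfolded protein response 8 of 37 were upregulated, with PPP1R15A (1.89), DDIT3 (CHOP, 1.29) and ATF4 (0.98), and 7 were downregulated, with VLDLR (-1.78) and the sensor ATF6 (-1.22). Heat shock proteins had 6 of 21 upregulated, HSPA2 (2.01) and HSPB1 (1.18) among them, and none downregulated. Interferon-stimulated genes had 12 of 32 upregulated, led by IRF1 (1.59) and IFIT2 (1.41), while the RNA sensor RIGI (-0.99) and IRF2 (-0.88) were downregulated.

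In 3 lists of genes of the cell surface and matrix more members fell than rose. In the order given here 29.6%, 22.7% and 15.8% were downregulated, against 10.8% of all genes. Upregulated were 7.41%, 6.82% and 5.26%, against 14.8%. The median gene lengths of these lists were 57.5, 156.7 and 83.9 kb. Of 27 receptor tyrosine kinases and EGF-family ligands 8 were downregulated, among them MET (-1.69) and EGFR (-1.36 ± 0.13 SE, adjusted p = 5.76e-08), and the ligand HBEGF (1.91) and FGFR3 (0.91) were upregulated. EGFR, a marker of this line, stood at 7.10, 7.41 and 7.28 against 8.76, 8.79 and 8.32 without overlap. Of 44 axon guidance and adhesion receptors 10 were downregulated, with SEMA3A (-2.46), SEMA3E (-2.30) and ROBO1 (-1.78), and 3 were upregulated, EFNB2 (1.73), SEMA7A (1.18) and PLXNA3 (0.69). PLXNA3 was not called after median centring (0.53), quantile normalization (0.58) or removal of the trend with level (0.52). Integrins, laminins and collagens had 6 of 38 downregulated, such as ITGA2 (-1.61) and ITGA6 (-1.42), and 2 upregulated, ITGA5 (0.61) and LAMB3 (0.64), neither of them without Cis 12 h B (0.51 and 0.55) and LAMB3 not without Control C (0.51). Among luminal epithelial markers the keratins KRT8 (1.68), KRT19 (1.02) and KRT18 (0.70) were upregulated and EPCAM was downregulated (-0.89), and 1 of 5 leukocyte markers measured, CD68 (1.22), a lysosomal gene that is not limited to leukocytes, was upregulated.

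Cis 12 h was next compared directly with Cis 24 h, without the control arrays, so that time with the drug and time in culture are mixed. From Cis 12 h to Cis 24 h 1327 genes were higher (7.21%) and 629 were lower (3.42%). By length, 722 of the 3076 genes of 100 kb or longer were higher at 24 h (23.5%) and 49 were lower (1.59%), whereas of the 7051 genes under 20 kb 69 were higher (0.979%) and 397 were lower (5.63%). The class of 400 kb or longer differed from the one below it: 25.1% of genes from 200 to 400 kb were higher at 24 h and 1.06% lower, against 6.71% and 6.49% of genes of 400 kb or longer.

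Single genes show these patterns. ID2 stood at 6.90, 7.01 and 7.19 at 24 h, below every 12 h array and above every control array (24 h minus 12 h -2.40 ± 0.21 SE, adjusted p = 1.97e-07). SNAI1 stood at 5.53, 5.30 and 5.31 (-2.06 ± 0.18 SE, adjusted p = 1.65e-07), and TNFSF15, a cytokine of the TNF family, at 4.74, 4.57 and 4.41 (-2.40 ± 0.19 SE), the latter overlapping the controls at 4.77, 4.84 and 4.44. CXCL8 differed little between the times (-0.45 ± 0.15 SE, fold under 1.5). Among long genes ARHGAP42 returned to 7.26, 6.91 and 7.22 (2.11 ± 0.17 SE, adjusted p = 1.38e-07) and KLHL4 to 7.41, 7.10 and 7.31 (1.89 ± 0.15 SE), both still under every control array. GPHN, over 1 Mb long, stayed at 5.64, 5.41 and 5.43 (0.17 ± 0.13 SE, adjusted p = 0.429). PTPRM went further down, from 7.57, 8.04 and 7.96 at 12 h to 5.76, 5.64 and 5.80 (-2.12 ± 0.13 SE, adjusted p = 6.19e-09), and STX8, a vesicle fusion gene of 325.4 kb that was not called at 12 h, went from 7.88, 7.87 and 7.67 to 5.82, 5.30 and 6.12 (-2.06 ± 0.21 SE). FHIT, upregulated at 12 h, was also lower at 24 h (-1.72).

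Several pathways differed between the times. Mitosis and kinetochore genes had 21 of 40 higher at 24 h than at 12 h and none lower, DNA replication genes 16 of 46 and none, and homologous recombination and crosslink repair genes 16 of 33 and none. BRCA1 rose to 9.19, 9.01 and 9.04 at 24 h from 7.23, 7.86 and 7.67 at 12 h (1.49 ± 0.15 SE, adjusted p = 1.07e-06). Of the immediate early factors 9 of 27 were lower at 24 h and 1 was higher, and of the copper and platinum genes 9 of 31 were lower, MT1X among them (-1.69), and 2 were higher, ATP7A among them (1.20).

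**Figure D4:**
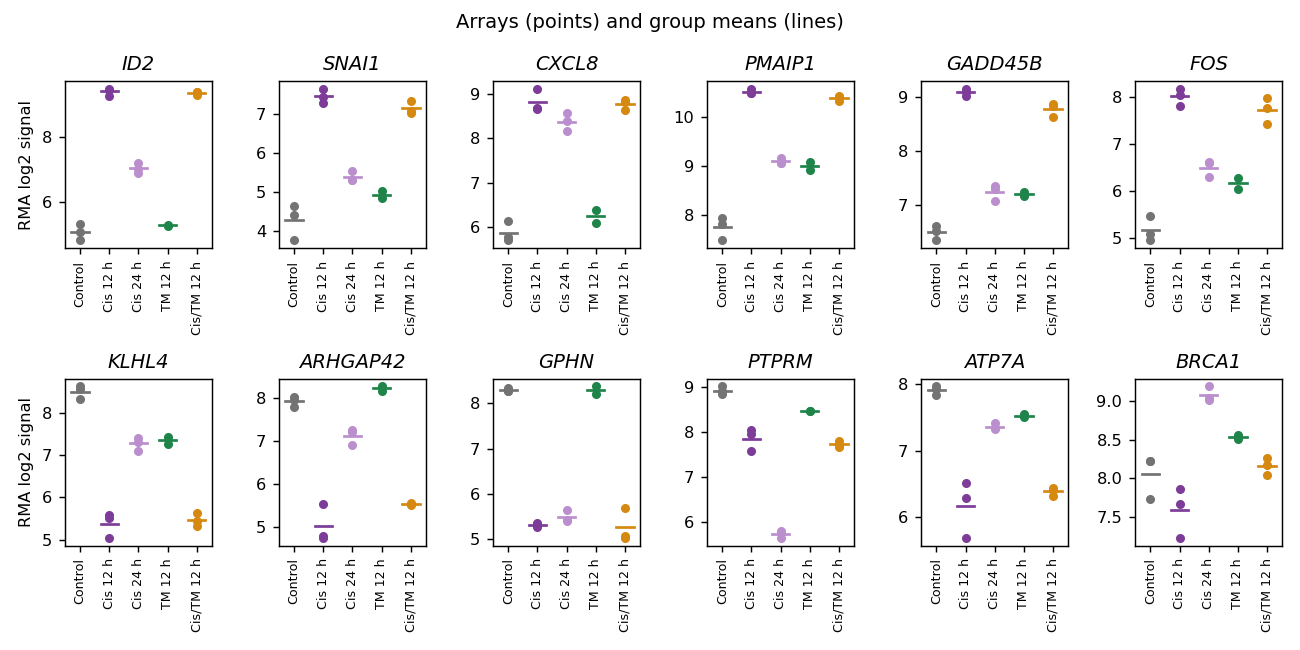
RMA log2 signal (vertical axes, each with its own range that does not start at 0) of 12 genes in Control, Cis 12 h, Cis 24 h, TM 12 h and Cis/TM 12 h; each point is 1 array and each line a group mean. ID2 is above 9 only in Cis 12 h and Cis/TM 12 h, ARHGAP42 lies lowest in the same groups, whose arrays overlap, and GPHN is low in all 3 cisplatin groups.

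Against TM 12 h, which shares the exposure time, 1271 genes were higher in Cis 12 h (6.9%) and 1888 were lower (10.3%). Of the genes of 100 kb or longer 1227 were lower and 17 higher, and of those under 20 kb 838 were higher and 58 lower, so the order by length was there without the control arrays. ID2 was higher in Cis 12 h than in TM 12 h by 4.17, GPHN lower by 2.97 and ARHGAP42 lower by 3.21 on the log2 scale. Only 2 arrays represent TM 12 h.

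No gene differed between Cis/TM 12 h and Cis 12 h by the rule used (0%, lowest adjusted p = 0.234 in limma), while 1732 genes had an unadjusted p under 0.05, and 52 of these had a fold change over 1.5. ID2 stood at 9.41, 9.32 and 9.41 with both drugs, a difference of -0.06 ± 0.21 (SE) from Cis 12 h. GPX1 had the lowest adjusted p among the genes named, with a difference of -0.64 ± 0.14 (SE, adjusted p = 0.234). The lack of calls does not show that both treatments had the same effect.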

How the data were processed

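Affymetrix Human Gene 1.0 ST arrays, 20 in 7 groups, measured RNA of MDA-MB-231 cells. The authors ran RMA, which corrects background, normalizes arrays and combines probes, and the log2 values they deposited were used as they stand. RMA compresses differences at low signal, and the values hold no background level per gene. For RNA isolation the methods name RNeasy and the labels Trizol. Groups came from the labels.

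All 20 arrays entered 1 limma 3.58.1 model of the 7 groups (R 4.3.3), moderated by eBayes, with 13 residual degrees of freedom. P-values were adjusted over 18417 genes by the Benjamini-Hochberg method. The number of arrays limits the precision. Other comparisons of the fit were Cis 24 h, Cis/TM 12 h and TM 12 h with Cis 12 h. The procedure was tested on simulated data of 18417 genes, with 100 changed 2-fold and 100 changed 3-fold. It called 95 and 99 of these, with 3 false calls. The simulation held few changed genes and no shift between arrays, so it says nothing on the scaling of the real arrays.

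Gene lengths, biotypes and promoters came from RefSeq (GRCh38.p14), matched by symbol or gene ID for 18386 genes (99.8%). Genes were named if they were among the 10 largest rises or falls, key members of a list, up to 4 called members of a list by p, called against their list's direction, or among the 5 largest in a direct comparison; others were named, with values seen, to complete counts of 5 or fewer. The largest rises and falls were taken only from called genes whose treated and control arrays did not overlap. The members, gene lists and length classes were chosen with earlier results of these data known. The results of 1 gene list are left out of the text. Alternatives covered normalization, filters, thresholds, the fit and each array left out.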

Additional observations from a re-analysis of the deposited data

Results flagged for a closer look

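Of the 1327 genes higher and 629 lower in the direct test of Cis 24 h against Cis 12 h, 10 were flagged. The test compares 2 times without controls of either time, so time in culture cannot be told apart from time with the drug. The flagged genes are the 5 largest differences in each direction, on the log2 scale as 24 h minus 12 h. Lower at 24 h were ID2 (-2.40), TNFSF15 (-2.40), PTPRM (-2.12), SNAI1 (-2.06) and STX8 (-2.06). Higher at 24 h were ARHGAP42 (2.11), KLHL4 (1.89), DOCK10 (1.88), ADD3 (1.86) and BAZ2B (1.8), all of them longer than 100 kb. Of these 10, ID2, TNFSF15 and SNAI1 were upregulated against Control at 12 h, STX8 was not called, and the other 6 were downregulated. ADD3, which encodes a protein of the membrane skeleton, had returned by 24 h to 8.78, 8.77 and 8.74, within the range of the controls at 8.57, 8.85 and 8.80. BAZ2B, a bromodomain gene, stood at 7.93, 7.85 and 7.88, below the controls at 8.45, 8.56 and 8.62.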

How the results depend on the processing

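With each array centred on its median, 3075 genes were downregulated against Control, of the genes of 100 kb or longer 16 were upregulated, and of those under 20 kb 389 were downregulated. Removing the trend with mean level left 14 upregulated genes of 100 kb or longer, and without the 25% of genes of lowest mean there were 62 downregulated genes under 20 kb. With a fold change over 2 the counts were 1151 up and 822 down, in genes of 100 kb or longer 9 up and 665 down, and in genes under 20 kb 827 up and 21 down. That threshold gave 299 genes higher and 128 lower at 24 h than at 12 h, and 348 higher and 839 lower in Cis 12 h than in TM 12 h. For Cis/TM 12 h against Cis 12 h quantile normalization gave 1 lower gene, and an unadjusted p with the fold gave 42 higher and 10 lower.

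When each array was left out in turn, 2618 to 2854 genes were upregulated and 1825 to 2181 downregulated against Control, 929 to 1593 higher and 548 to 708 lower at 24 h, 0 to 5 higher and 0 lower in Cis/TM 12 h (5 without Cis 12 h B), and 1106 to 1377 higher and 1581 to 2085 lower than in TM 12 h. Of genes of 100 kb or longer 26 to 33 were upregulated and 1105 to 1268 downregulated, and of those under 20 kb 1725 to 1818 and 138 to 195. With the replicate letter as a replicate block 2717 genes were upregulated and 1984 downregulated. The residuals of arrays with the same letter correlated with r of 0.16, 0.06 and 0.18, so the letters were not taken as pairs. Among named genes, median centring, quantile normalization and removal of the trend with level each ended the calls of BAX, BMP4, BHLHE40, ITGA5, LAMB3, PLXNA3, RAD54L, SNAI2, SNAI3, TNFRSF10A and TRADD. Some of them ended the calls of FHIT, HEYL, H2AC14, H2BC8, IL33, PCDH15, PCDHB8, BAK1, CAV1, KRT18, SKIL and TGFB3, and with only the compared arrays in the fit ORC4 and PCDHB8 were not called. No called gene of the text changed its direction. The cause of these shifts was not tested. RMA values give no background, so genes of low signal bear no firm statement.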

Other observations

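Noncoding and repeated genes were not part of the account above. Of 189 small nucleolar RNAs, which guide the modification of ribosomal RNA, 56 were upregulated (29.6%, against 14.8% of all genes) and 15 were downregulated, with a median log2 fold change of 0.10. SNORD43 (2.56), SNORD74 (2.14) and SCARNA12 (1.75) were upregulated and SNORA50A (-1.59) was downregulated. In the direct test of 24 h against 12 h 31 of the 189 were lower and 1 was higher. Most of these RNAs are cut from introns of host genes, and the probes of this array may also read unspliced host RNA, which was not tested.

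Of 632 long noncoding RNAs 37 were upregulated (5.85%) and 35 were downregulated (5.54%), against 14.8% and 10.8% of all genes. Of 173 microRNA genes 8 were upregulated (4.62%) and 18 downregulated (10.4%), where the array reads the hairpin or its precursor and not the mature RNA. Among 60 histone genes 13 were upregulated (21.7%) and 3 were downregulated (5.0%), H2BC3 (-0.84), H2AC14 (-0.67) and H2BC8 (-0.62). Without 1 array the call of H2AC14 was lost (-0.45 without Cis 12 h C, -0.61 without Control B and -0.61 without Control C), as was that of H2BC8 without Control C (-0.57). H4C14 and H4C15 had the same value (2.38), as near-identical copies that this array cannot separate, and H2BC12 had 1.66. C2H2 zinc finger genes had 77 of 480 upregulated, with ZNF317 at 2.04, and 39 downregulated, with ZNF804A at -1.96, and here too the downregulated genes were longer, with a median of 62.8 kb against 16.8 kb. Of 40 protocadherins none was upregulated and 2 were downregulated (5.0%), PCDH15 (-0.71, not called at -0.53 without Control B) and PCDHB8 (-0.61, not called at -0.53 without Cis 12 h A, -0.47 without Control B and -0.47 without Control C). Solute carriers were balanced and near the shares of all genes, with 37 of 329 upregulated (11.2%) and 34 downregulated (10.3%).

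Lists of metabolism, rhythm and signalling moved in both directions. Sterol and fatty acid synthesis had 6 of 22 genes upregulated, such as DHCR7 (1.26) and FDPS (0.90), and 2 downregulated, ACACA (-1.35), acetyl-CoA carboxylase, and INSIG2 (-0.59), which was not called without Cis 12 h A (-0.49) or Control A (-0.45). Circadian clock genes had 2 of 17 upregulated, NR1D1 (1.10) and BHLHE40 (0.59), and 4 downregulated, CLOCK (-1.43), RORA (-0.81), NR1D2 (-0.73) and CRY1 (-0.61). BHLHE40 was not called without Cis 12 h B (0.53) or Control C (0.35), nor CRY1 without Cis 12 h A (-0.47). Notch and Wnt targets had 1 of 23 upregulated, HEYL (0.73), and 3 downregulated, NOTCH2 (-0.88), JAG1 (-0.80) and LEF1 (-0.78).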
